A study of Mus musculus with 36 samples.

Results

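Mir142, the gene of the microRNA miR-142, and Mir142hg, the annotated long noncoding RNA that hosts it, were followed across tibial bone from wild-type and progeria mice. They were taken by their symbols and are 2 of the 56246 genes in the table. Both were chosen by their measured levels in WT, saline and ABE libraries, so their differences between groups are given as a description, without a test.

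The study asked how base editing of the progeria mutation alters the skeleton of mice that model this premature ageing disease. Bulk RNA-seq was made from the tibiae of 36 mice at 6 months of age, in 3 groups of 12 with 6 females and 6 males in each. The WT mice were wild-type and received no injection. The saline and ABE groups were LMNA G608G/G608G mice (LMNA G/G), which carry the human LMNA gene with the G608G mutation as a double-copy transgene and keep their own mouse Lmna genes. At postnatal day 14 they received retro-orbital saline, or an adenine base editor (ABE) delivered as a split pair of AAV9 vectors. Genotype, injection and the separate series of mouse numbers that the WT animals carry cannot be told apart in any comparison with WT. The ends of each tibia were cut off and its marrow taken out, leaving what the paper describes as mostly cortical bone. Neutrophil and muscle transcripts were still abundant in the libraries of all 3 groups, as given further below.

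MicroRNA genes are transcribed as long primary transcripts. Drosha and Dgcr8 cut the hairpin out of the primary transcript in the nucleus, Xpo5 exports it, Dicer1 trims it to the mature strand, and an Argonaute protein carries that strand to partly matching sites in messenger RNAs. miR-142 is known as a microRNA of blood cells, made in nearly all haematopoietic lineages and little elsewhere, and is required for normal platelet, lymphoid and myeloid cell function. The libraries were made from poly(A)-selected RNA, so they hold long RNA that runs across the hairpin and not the mature microRNA.

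The Mir142 gene (ENSMUSG00000105196.1) covers 64 bases on the plus strand of chromosome 11, from 87756864 to 87756927 in GRCm38. Mir142hg (ENSMUSG00000084796.1) runs on the same strand from 87755577 to 87757270 and has 2 annotated exons of 37 and 232 bases, 269 bases in all. The hairpin is intronic. It lies in the single intron of 1425 bases, 1250 bases after exon 1 and 111 bases before exon 2, so a spliced host RNA does not contain it. The hairpin and the mature strands are shown because they separate what was counted (the locus of the 64-base hairpin) from what acts in the cell. All are RefSeq sequences placed on GRCm38.p6. Capitals in the hairpin mark both mature arms, and capitals in each mature strand mark the seed, bases 2 to 8, which selects the target sites.
Mir142 hairpin: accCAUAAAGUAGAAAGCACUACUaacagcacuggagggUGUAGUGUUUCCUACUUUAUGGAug
miR-142a-5p: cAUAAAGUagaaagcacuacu
miR-142a-3p: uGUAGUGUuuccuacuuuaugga
miR-142b: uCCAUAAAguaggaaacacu
miR-142b belongs to Mir142b, annotated on the opposite strand across the same hairpin. The seeds differ between the arms, and no other of the 1738 mature mouse microRNAs in the RefSeq table shares any of these seeds.

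**Figure D1:**
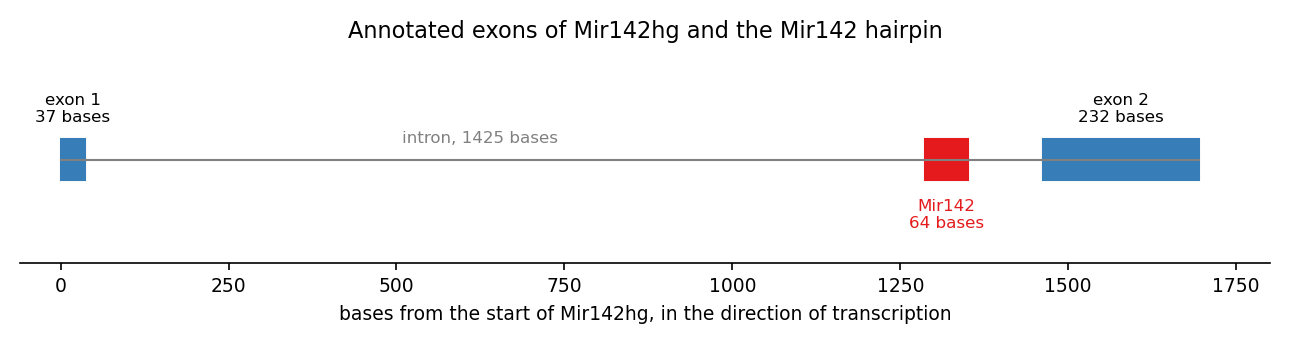
Map of the annotated exons of Mir142hg (blue) and the Mir142 hairpin (red) along the host gene, in bases from the start of Mir142hg in the direction of transcription. The 64-base hairpin sits in the 1425-base intron, 111 bases before exon 2.

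The deposited values are TPM, a level scaled by gene length and by library. Whole reads were recovered from them, with 48064068 to 116206662 reads on genes per library, and RPM below are these reads scaled to the same total in each library. The Mir142 gene is shorter than a sequenced read, and its TPM carries no length correction. Reads of Mir142 and Mir142hg are therefore compared between libraries and not with each other as levels. The library kit keeps the strand, the strand setting of the counting is not given in the sources used here, and Mir142b, on the other strand, had at most 8 reads in any library. One ABE female library stood apart, with a scale factor of 0.22, and Mir142 and Mir142hg differed between ABE and saline by -0.91 and -0.40 without it, beside -0.99 and -0.52 with it. How a read pair that touches both the hairpin and a host exon was counted is not given in the sources used here.

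Mir142 was high in every WT library and low in every LMNA G/G library. In WT mice its reads ranged from 737 to 1316 per library, with a median of 1051.5. In saline-treated mice they ranged from 47 to 115 with a median of 74.5, and in ABE-treated mice from 4 to 88 with a median of 38. No library of either LMNA G/G group reached the lowest WT library, whereas saline and ABE overlapped and 6 of 12 ABE libraries lay below every saline library in RPM. Mean RPM was 13.7 ± 2.31 (SD, n = 12) in WT, 0.919 ± 0.256 in saline and 0.506 ± 0.299 in ABE, so the WT mean was 14.9 times the saline mean and 27.0 times the ABE mean. On the log2(scaled TPM + 0.5) scale of the fit, saline differed from WT by -3.93 (SE 0.25), ABE from WT by -4.92 (SE 0.25) and ABE from saline by -0.99 (SE 0.25). For reference, every saline library lay below every WT library for 4.28% of the 14125 genes tested, and every ABE library below every WT library for 5.34%, from which nothing is read about Mir142 itself. In bulk tissue, fewer cells of a type and less RNA per cell cannot be told apart.

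The host transcript was also lower, by a smaller amount. Mir142hg had 1921 to 4867 reads in WT libraries, 1175 to 2830 in saline and 281 to 2138 in ABE. In RPM its median was 42.5 in WT (24.6 to 59.3), 20.7 in saline (12.3 to 25.3) and 13.7 in ABE (3.44 to 24.8). In RPM the groups overlapped narrowly, since 11 of 12 saline libraries and 11 of 12 ABE libraries lay below the lowest WT library. In scaled TPM, which divides by the median ratio of longer genes, all 12 of each did. The fitted log2 differences were -1.03 (SE 0.17) for saline against WT, -1.55 (SE 0.17) for ABE against WT and -0.52 (SE 0.17) for ABE against saline. The WT libraries serve in both comparisons with WT, so the saline and ABE differences are not independent.

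**Figure D2:**
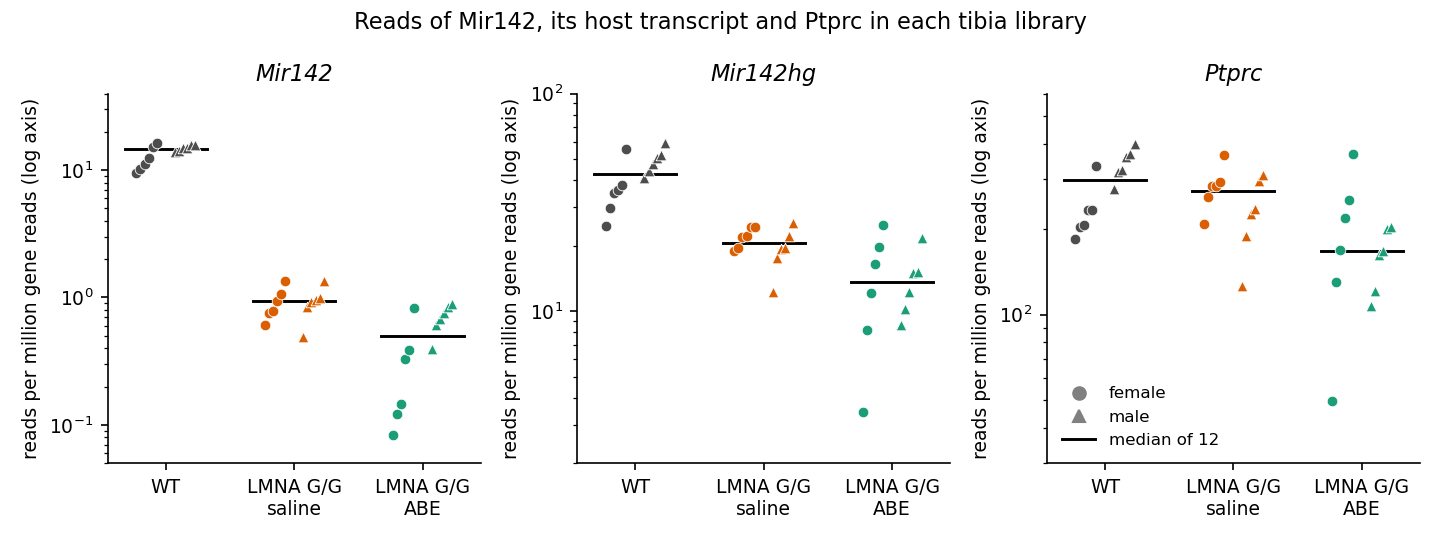
RPM (reads scaled to the same total of gene reads, log axes) of Mir142, Mir142hg and Ptprc in each of the 36 tibia libraries, by group, with females as circles, males as triangles and a bar at the median of 12. Mir142 falls from a WT median of 14.6 to 0.930 in saline and 0.502 in ABE without overlap with WT, Mir142hg overlaps WT narrowly, and Ptprc overlaps broadly.

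Mir142 fell further than its host in the same libraries. For every 100 reads on Mir142hg there were 25.3 to 42.8 reads on Mir142 in WT (median 32.3), 2.51 to 5.49 in saline (median 4.62) and 0.888 to 7.88 in ABE (median 3.81). The WT range did not overlap either LMNA G/G range, and the saline and ABE ranges overlapped. The mean ratio was 7.40 times higher in WT than in saline and 8.58 times higher in WT than in ABE. Both members were in turn set against Ptprc, the gene of the leukocyte common antigen CD45. There were 12.8 to 16.9 Mir142hg reads for every 100 Ptprc reads in WT, 6.21 to 9.78 in saline and 6.33 to 10.6 in ABE, again without overlap with WT. For Mir142 the same ratio was 3.76 to 6.92 in WT, 0.167 to 0.459 in saline and 0.0641 to 0.699 in ABE. These ratios were chosen after the levels had been seen and are a description.

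**Figure D3:**
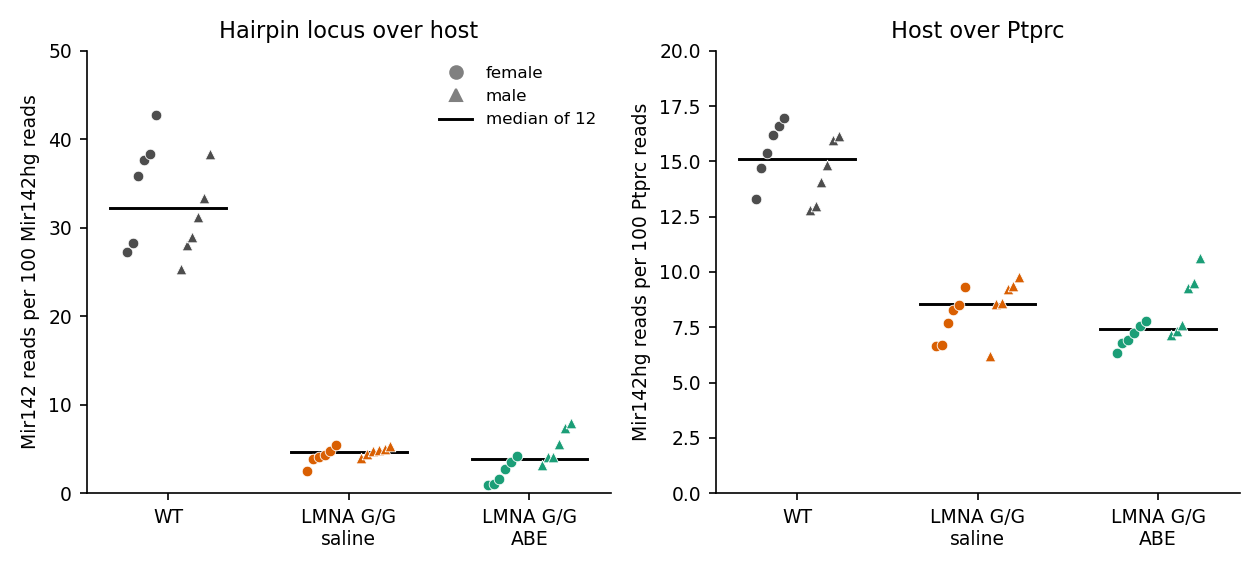
Mir142 reads per 100 Mir142hg reads (left) and Mir142hg reads per 100 Ptprc reads (right) in each library, by group, with females as circles, males as triangles and a bar at the median of 12. Both axes start at 0. WT libraries lie above all LMNA G/G libraries in both panels, by medians of 32.3 against 4.62 and 3.81 on the left and 15.1 against 8.53 and 7.44 on the right.

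Sex was not used to choose the members and could be tested. Mir142 was 0.56 higher in males than in females on the log2 scale (SE 0.21), which did not pass (limma, adjusted p = 0.267 over all genes tested, where 0.651% of genes were called). Mir142hg differed by 0.09 (SE 0.14, limma adjusted p = 0.907). The difference of Mir142 between ABE and saline was -1.72 (SE 0.31) in females and -0.27 (SE 0.31) in males. In RPM the 6 ABE females ranged from 0.0832 to 0.831 with a median of 0.238, and the 6 ABE males from 0.393 to 0.891 with a median of 0.717, while saline females and males had medians of 0.858 and 0.942. The test of this difference between the sexes, males minus females, gave 1.45 (SE 0.45, limma adjusted p = 0.125), against a background of 0.0708% of genes called. The ABE females had 4 to 65 Mir142 reads each. For Mir142hg the same difference between the sexes was 0.30 (SE 0.33, limma adjusted p = 0.617). For saline against WT, the sexes differed by -0.19 (SE 0.45) for Mir142 and -0.58 (SE 0.33) for Mir142hg (limma adjusted p = 0.792 and 0.26), where 2.84% of genes were called.

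Within groups, libraries high in Mir142hg were also high in Ptprc. Over the 36 libraries the relation of Mir142 with its host did not pass in scaled TPM and passed in RPM. Over the 36 libraries, as deviations from group means, Mir142hg and Ptprc had a Pearson r of 0.882 (permutation p = 1e-05, the smallest that 100000 resamples can give, adjusted 0.00012) and a Spearman rho of 0.851 (permutation p = 1e-05, adjusted 0.00012). By this r Ptprc ranked 321 of 13392 genes for Mir142hg, and by level it ranked 2081 (r = 0.805), so the relation was not particular to Ptprc. The Pearson r was 0.905 in WT, 0.8 in saline and 0.924 in ABE (permutation p = 6e-05, 0.00417 and 6e-05, adjusted 0.00024, 0.0125 and 0.00024). The corresponding rho was 0.902, 0.664 and 0.881 (permutation p = 0.0002, 0.0219 and 0.00034, adjusted 0.0012, 0.0656 and 0.00136). Without the 2 libraries farthest from the Mir142hg median, r was 0.836 over the remaining 34. Within groups this left n = 10, with r of 0.839 in WT, 0.871 in ABE and 0.497 in saline. The saline value did not pass (permutation test, adjusted p = 0.212). Leaving out the farthest libraries also narrows the range of Mir142hg. Mir142 and Mir142hg had an r of 0.447 (permutation p = 0.0478, adjusted 0.0717) and a rho of 0.385 (permutation p = 0.0389, adjusted 0.0933) over the 36 libraries, an r of 0.541 without the 2 farthest (adjusted p = 0.0274, permutation test) and an r of 0.349 without the ABE female library that stood apart. Mir142 and Ptprc had an r of 0.24 (permutation p = 0.277, adjusted 0.302) and a rho of 0.189 (permutation p = 0.309, adjusted 0.383), and an r of 0.341 without the 2 farthest. In the single groups, Mir142 with Mir142hg gave r of 0.685 in WT, 0.629 in saline and 0.415 in ABE (permutation p = 0.0146, 0.0311 and 0.178, adjusted 0.035, 0.0532 and 0.237), with rho of 0.517, 0.517 and 0.315 (adjusted 0.135, 0.135 and 0.383). The WT value was 0.33 without its 2 farthest libraries and did not pass (permutation test, adjusted p = 0.426). The same check raised r to 0.801 in saline and 0.509 in ABE (permutation test, adjusted p = 0.0149 and 0.212). In RPM r was 0.554 over the 36 libraries (permutation test, adjusted p = 0.0173). In the single groups it was 0.775 in WT, 0.704 in saline and 0.528 in ABE (permutation test, adjusted p = 0.00732, 0.0173 and 0.0887). The family held 12 values over 3 relations, all two-sided, adjusted by Benjamini-Hochberg. Sex was not removed from these values. In WT, mean RPM was higher in males for Mir142hg (49.0 against 36.4 in females) and Ptprc (340 against 232.5). In saline and ABE both means were higher in females. The difference between these correlations was not tested.

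Across all 36 libraries the genes with a pattern most like Mir142hg, by Pearson r of log2 levels among 13392 other genes long enough for a length correction, were Tspan32 (r = 0.974), Tedc1 (0.969) and Bcl11a (0.968), followed by Aim2, Slc38a1, Arhgap45, Pold1, Recql, Cybc1 and Gm15899, the last at 0.962. By deviations from group means they were Ikzf1 (r = 0.947), the lymphoid transcription factor Ikaros, then Hmgb2 (0.946), Cdc20 (0.946), Cks1b, Tuba1b, Syce2, Jpt1, Asf1b, Lmnb1 and Stmn1, the last at 0.938. For Mir142, whose likeness was added after values had been seen, the highest values were Zc3h12a (r = 0.955), an RNA-cleaving regulator of inflammatory transcripts, Gm49747 (0.948) and Gm19721 (0.947) by level, and Arhgap39 (0.774), Slc1a5 (0.747) and Gramd4 (0.745) by deviation. Mir142hg itself ranked 436 of 13393 for Mir142 by level (r = 0.874) and 1425 by deviation (r = 0.447). These are descriptions over 36 libraries that share their groups, and levels that differ between groups raise r.

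Of the genes within 100 kb of Mir142, 3 besides the members had enough reads to be tested. Tspoap1, which encodes a protein that binds the mitochondrial translocator protein, starts 3614 bases beyond the hairpin on the same strand and had mean scaled TPM of 1.82 in WT, 0.712 in saline and 0.532 in ABE. It fell by 0.93 in saline against WT (SE 0.12, limma adjusted p = 5.36e-08) and by 1.19 in ABE against WT (SE 0.12, limma adjusted p = 2.93e-10). Its difference between ABE and saline was -0.26 (SE 0.12, limma adjusted p = 0.0594). Mpo, the neutrophil myeloperoxidase, lies 36654 bases away and had mean scaled TPM of 47.4, 52.9 and 33.2. Its difference between saline and WT was 0.12 (SE 0.30, limma adjusted p = 0.745), and it fell by 0.79 in ABE against WT (SE 0.30, limma adjusted p = 0.0165). Supt4a, a transcription elongation factor 13241 bases upstream, rose by 0.30 in saline against WT (SE 0.08, limma adjusted p = 0.00296).

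Marker genes of the blood lineages moved unevenly, and those of bone and muscle were higher in LMNA G/G tibiae. Over all genes tested, 30.4% were called higher and 28.2% lower in saline against WT, 37.7% higher and 39% lower in ABE against WT, and 25.9% higher and 28.9% lower in ABE against saline (limma, adjusted p under 0.05), with median log2 differences of 0.02, -0.02 and -0.01. The lists below are read against these shares and were chosen with earlier results of these data known.

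Among 20 pan-leukocyte genes, none was higher and 6 were lower in saline against WT, with a median of -0.14, and 17 were lower in ABE against WT, with a median of -0.68. Ptprc itself, at a mean scaled TPM of 4.25 in WT, 3.81 in saline and 2.89 in ABE, differed by -0.14 between saline and WT (SE 0.15, limma adjusted p = 0.405) and fell by 0.52 in ABE against WT (limma adjusted p = 0.0016). Cd37, a leukocyte tetraspanin, fell by 0.93 in saline, and Coro1a, an actin-binding protein of leukocytes, differed by -0.25 without passing. The summed scaled TPM of the list was 151 to 298 in WT, 112 to 263 in saline and 47.6 to 265 in ABE.

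Lymphoid and platelet genes were lower in saline against WT, and neutrophil and macrophage genes for the most part were not. Of 15 B cell genes, 13 were lower, with a median of -0.70. Of 9 megakaryocyte and platelet genes tested, all 9 were lower, with a median of -0.94, led by Itga2b, the platelet fibrinogen receptor chain, at -1.30 (limma adjusted p = 4.94e-05), and all 9 were lower again in ABE against saline. Of 5 T and NK cell genes tested 3 were lower, and of 4 mast and progenitor cell genes all 4 were lower, with medians of -0.31 and -0.43. Of 16 neutrophil genes 3 were higher and none lower, with S100a8, a calcium-binding alarmin, at 1.24. Of 14 monocyte and macrophage genes 1 was higher and 3 lower, and of 10 erythroid genes 1 was lower, so that Slc4a1, the red cell anion exchanger, stood at -0.05 (limma adjusted p = 0.889).

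In ABE against WT the same lists had 6 of 16 neutrophil, 12 of 14 monocyte and macrophage, 13 of 15 B cell, 5 of 5 T and NK cell, 10 of 10 erythroid, 9 of 9 megakaryocyte and platelet and 3 of 4 mast and progenitor cell genes lower. In ABE against saline, 18 of 20 pan-leukocyte, 14 of 16 neutrophil and 9 of 10 erythroid genes were lower, and 3 of 15 B cell genes. Without the ABE female library that stood apart, an alternative added after the data were seen, these counts were 16, 9, 8 and 1. With and without it, 10 of 14 monocyte and macrophage and 4 of 5 T and NK cell genes were lower in ABE against saline. Of 4 mast and progenitor cell genes, 1 was higher and 1 lower. Ahsp, an erythroid marker, was not analysed here, and the T cell antigen receptor genes Cd3e, Cd3d and Cd3g were too low to be tested.

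Osteoclasts are themselves of blood origin, and 8 of 9 tested osteoclast genes were higher in saline against WT. Ctsk, the collagen-degrading cathepsin K, rose by 1.63 (limma adjusted p = 3.68e-07), and Itgb3, an integrin chain shared with platelets, fell by 0.65 (limma adjusted p = 0.00431). In ABE against WT 5 of the 9 osteoclast genes were higher and 1 lower. In ABE against saline 8 of the 9 were lower, and 6 without the ABE female library that stood apart. All 6 osteocyte genes tested were higher in saline against WT, with Mepe, a mineralization-regulating matrix protein, at 4.75 and Sost, the Wnt inhibitor sclerostin, at 3.96. The summed scaled TPM of the osteocyte genes was 10.8 to 50.1 in WT, 173 to 495 in saline and 176 to 350 in ABE, so these markers of cortical bone were low in every WT library. For the 16 neutrophil genes the same sum was 818 to 2649 in WT, 1077 to 3843 in saline and 368 to 4133 in ABE. Of 8 skeletal muscle genes, 7 were higher in saline against WT, all 8 in ABE against WT and 7 in ABE against saline, with summed scaled TPM of 187 to 2789, 293 to 6989 and 972 to 11698. Of 6 endothelial genes 3 were higher in saline against WT and 5 in ABE against WT. Markers of bone, muscle and several blood lineages thus moved with the groups, and their part in the members' levels was not tested.

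**Figure D4:**
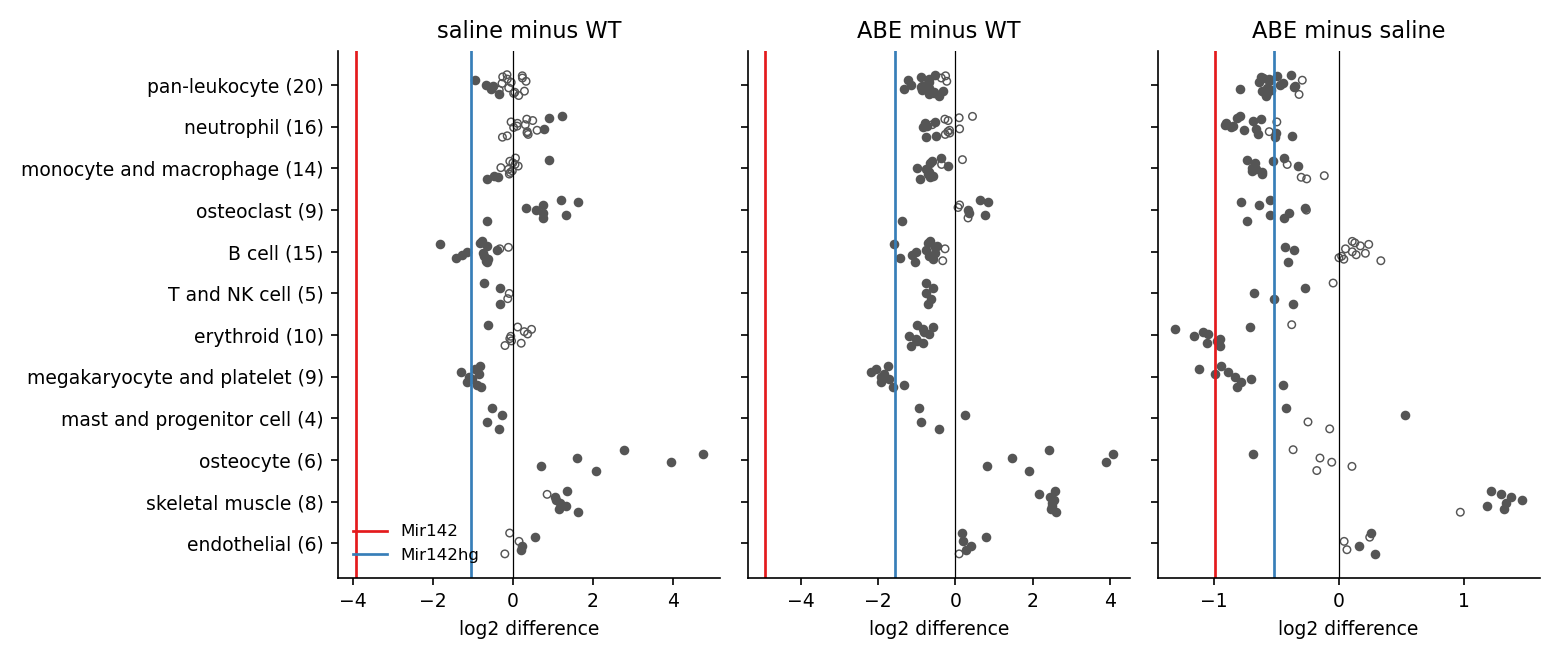
Log2 differences of the tested genes of 12 cell type lists (number tested in parentheses) in the 3 comparisons, with filled points for genes called by limma at an adjusted p under 0.05 and open points for the others. Vertical lines mark Mir142 (red) and Mir142hg (blue), which stand at -3.93 and -1.03 in saline against WT, where every blood-lineage marker lies to the right of Mir142. Both members were chosen by their levels in these groups.

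Mir142 was compared with the other microRNA loci, which share the difficulty of short genes in a poly(A) library. Of 185 microRNA genes with a mean of at least 10 reads, 10 were called higher and 116 lower in saline against WT, with a median log2 difference of -0.68, and 20 were higher and 110 lower in ABE against WT. The median of the 184 others was -0.67, so microRNA loci were lower as a class while the median over all genes was 0.02. In ABE against saline the median was 0.03, with 24 called higher and 22 lower. Mir142 had the lowest log2 difference of the 185 in both comparisons with WT. It was chosen by these levels, so nothing is read from that place. Small nuclear and small nucleolar RNA genes, also short, had medians of -0.38 (132 tested) and -0.46 (156 tested) in saline against WT. Long noncoding RNA genes had a median of -0.22, with 74 higher and 344 lower of 611 tested. Protein-coding genes had a median of 0.04, with 3718 higher and 2760 lower of 11177 tested.

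The 5 microRNA genes with the most reads over all libraries were Mir6236, Mir144, Mir5125, Mir142 and Mir8116. Mir6236 had 10 to 712 reads in WT, 45 to 757 in saline and 12 to 10590 in ABE, where the mean of 1570 fell to 751 without the ABE female library that stood apart, and it differed by 0.81 in saline against WT (SE 0.78, limma adjusted p = 0.373). Mir144 and Mir451a are neighbours on chromosome 11 and are made in red cell precursors, where miR-451a bypasses Dicer1 and is cut by Ago2. Mir144 had 337 to 1721 reads in WT, 53 to 429 in saline and 11 to 206 in ABE. In RPM it did not overlap between WT and either LMNA G/G group. It fell by 2.71 in saline against WT (SE 0.32, limma adjusted p = 1.74e-08). Mir451a, with 88 to 470, 24 to 72 and 1 to 51 reads, fell by 2.66 (SE 0.35, limma adjusted p = 1.26e-07), while the 10 tested erythroid protein genes had a median of 0.05. Mir5125, in an intron of Srrm2, and Mir8116, in an intron of Ache, fell by 0.44 and 0.96 (limma adjusted p = 0.00624 and 0.00028). The mature strands of Mir144 and Mir451a are shown beside those of Mir142 because these loci fell with it. Their seeds, in capitals, are different.
miR-144-5p: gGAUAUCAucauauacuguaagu
miR-144-3p: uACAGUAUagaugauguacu
miR-451a: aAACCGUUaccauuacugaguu

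Of 7 microRNA genes known from blood cells besides Mir142, Mir144 and Mir451a were tested and both were lower in all 3 comparisons. Mir223 and Mir155 were listed at 0 in all libraries, Mir150 had at most 3 reads and Mir146 at most 17. Of 9 microRNA genes known from other tissues 4 were tested, with 2 lower in saline against WT, 1 higher and 1 lower in ABE against WT, and 2 higher in ABE against saline. Mir1a-1, of muscle, rose by 1.73 in ABE against WT (limma adjusted p = 0.000648), and Mir143 fell by 2.50 in saline against WT (limma adjusted p = 4.78e-09).

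Most microRNA genes inside introns were lower relative to their hosts in LMNA G/G tibiae. For 134 such genes with a tested host on the same strand, the host's log2 difference was subtracted from that of the microRNA gene. This gap was -2.89 for Mir142 in saline against WT. Among the other 133 it had a median of -0.64, was below 0 for 119 and ranged from -2.15 (Mir133a-1) to 0.87. Mir133a-1 had few reads, with means of 10.5 in WT and 10.8 in saline, and its host rose by 1.26. In ABE against WT the gap was -3.36 for Mir142, against a median of -0.60 and a lowest value of -2.67 (Mir421) for the others. Mir421 also had few reads, with means of 30.7 in WT and 4.08 in ABE. None of the others lay below Mir142 in either comparison with WT, and 9 did in ABE against saline, where the gap of Mir142 was -0.47. Mir142 was chosen by its levels in these groups, so its place among the pairs is a description from which nothing is read.

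**Figure D5:**
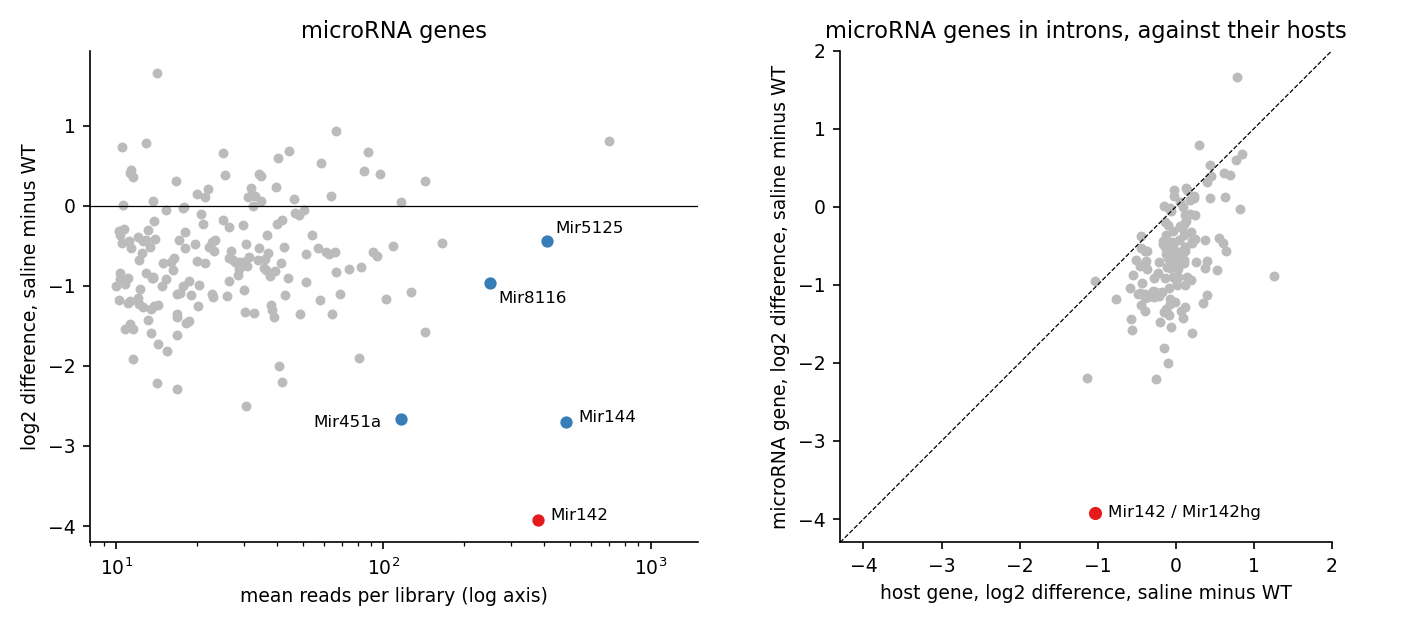
Left, log2 difference between saline and WT of 185 microRNA genes against their mean reads per library (log axis), with Mir142 in red and the other named genes in blue. Right, the same difference for 134 microRNA genes in introns against that of their host genes, with a dashed line where both are equal. Mir142, which was chosen by its levels in these groups, is the lowest point in both panels, at -3.93 with its host at -1.03. On the right, 119 of the other 133 genes lie below the line.

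Other annotated host transcripts of microRNAs did not share one direction. Mir17hg, host of the cluster that promotes growth of lymphoid precursors, fell by 0.46 in saline against WT (limma adjusted p = 9.99e-07). Mir100hg rose by 0.77 (limma adjusted p = 1.17e-10), and Mir133a-1hg, host of a muscle microRNA, rose by 1.26 (limma adjusted p = 0.00328). Mir22hg differed by -0.18 (limma adjusted p = 0.0547, and 0.0253 without the ABE female library that stood apart).

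Genes of microRNA processing differed by less than the members. Of 14 genes, 3 were higher and 8 lower in saline against WT, with a median of -0.09 and a range from -0.38 to 0.23, and 3 were higher and 5 lower in ABE against WT. The largest fall was in Dgcr8, the RNA-binding partner of Drosha, at -0.38 (SE 0.06, limma adjusted p = 1.26e-06) in saline and -0.54 in ABE against WT. Drosha differed by 0.11 in saline against WT (limma adjusted p = 0.0684) and rose by 0.25 in ABE against WT (limma adjusted p = 5.46e-05), which turned to -0.23 with TPM as deposited. Ran, which drives nuclear export with Xpo5, rose by 0.23 in saline, and Ago2 fell by 0.22 (limma adjusted p = 0.0347 and 0.03). Of 3 transcription factors known to act at the Mir142 locus, Spi1 (PU.1) differed by 0.29 and Runx1 by -0.15 in saline against WT (limma adjusted p = 0.0856 and 0.0878), while Cebpb rose by 1.14 (limma adjusted p = 2.73e-08). In ABE against saline Spi1 fell by 0.61 and Runx1 by 0.27 (limma adjusted p = 0.00164 and 0.00391). Without the ABE female library that stood apart, the differences of Drosha, Spi1 and Runx1 between saline and WT passed (limma adjusted p = 0.018, 0.0351 and 0.0272).

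Of 12 genes reported as miR-142 targets, 7 were higher and 1 lower in saline against WT, with a median of 0.16, and 8 were higher and 3 lower in ABE against WT, with a median of 0.32. In saline, Itgav, an integrin chain, rose by 0.70 and Prkca, a protein kinase C, fell by 0.38. Cfl2, the muscle form of cofilin, rose by 0.68 in saline and by 1.53 in ABE against WT, beside the skeletal muscle genes above. The letters that pair with the seeds were searched on the transcribed strand of the annotated 3′ untranslated regions. The site of miR-142a-3p, ACACTAC, was found in 725 of 10874 tested genes (6.67%), and that of miR-142a-5p, ACTTTAT, in 1671 (15.4%). Among the reported targets, the region of Arhgap35 held 3 sites of miR-142a-3p, Cfl2 2 and Il6st 2 of each arm, and those of Adcy9 and Irf7 held none (named after the counts were seen). Genes with a miR-142a-3p site had a median log2 difference of 0.05 in saline against WT, where 37% were higher and 24.8% lower, and genes without one 0.04, where 32.9% were higher and 24.7% lower. In ABE against WT the medians were 0.08 with a miR-142a-3p site, where 46.6% were higher and 31.9% lower, and 0.02 without one, where 41.8% were higher and 37.5% lower. In ABE against saline they were 0.03, with 33.0% higher and 23.2% lower, and -0.01, with 28.4% higher and 31.0% lower. For miR-142a-5p the medians in saline against WT were 0.05 and 0.03, in ABE against WT 0.04 and 0.02, and in ABE against saline 0.01 and -0.01. These differences between sets were not tested. Genes with a site had longer regions, with a median of 2488 bases against 1068 for miR-142a-3p and 2387 against 968 for miR-142a-5p. A match of letters is not a used site.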

How the data were processed

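RNA was sequenced from 36 tibiae as strand-specific poly(A) libraries. The authors aligned paired reads to GRCm38 with STAR, counted GENCODE M24 genes with QoRTs and deposited TPM. In the deposited TPM the effective length was the gene length minus 218 bases, with a floor at 1, and all values (100%) were whole reads within 0.01 after this was undone. The 7335 shortest genes, those at or near this floor, held most of the TPM, so TPM were divided by each library's median ratio over 22771 longer genes. The 14125 genes that reached mean values of 0.5 TPM and 10 recovered reads were fitted with limma 3.58.1 (trend, robust) on log2(scaled TPM + 0.5), with sex as a covariate and all libraries in 1 fit, and p-values were adjusted by Benjamini-Hochberg at 0.05. The study's own tests used raw reads, while TPM were deposited. Fold changes on this scale understate those of low genes. Interactions used group by sex means. Locus positions came from GENCODE M21, which matched 54487 of 56246 gene IDs (54476 at the same length), and sequences from RefSeq. The Mir142hg start has no entry in the promoter table and no promoter is shown. Members and lists were chosen with earlier results of these data known. Named genes were, per list, the 3 with the highest level and the called genes with the largest rise and fall in each comparison, the 10 most like Mir142hg, genes within 100 kb, tested host transcripts and the 5 microRNA genes with most reads, and a few others were named after their values were seen. One gene that the rule names is not reported here. Read ratios, host pairs and seed sites were added after the data were seen. The fit was tested on simulated data. No label says that libraries are more than 1 per mouse, and p-values measure the spread between mice. Alternatives concerned scaling, pseudocount, filter, limma-voom on recovered reads, sex and libraries.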

Additional observations from a re-analysis of the deposited data

How the results depend on the processing

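Under 11 alternatives (other scalings, pseudocounts and filters, limma-voom, no sex term, without the ABE female library that stood apart, or 1 sex alone) both members kept the direction of their 3 differences between groups. Mir142 in ABE against saline moved to -1.72 in females alone and -0.27 in males alone, and Mir142hg in ABE against WT to -2.12 with TPM as deposited. The correlation of Mir142 with Mir142hg passed with TPM as deposited (0.774), with TPM rescaled over longer genes (0.513), with RPM (0.554) and without the 2 farthest libraries (0.541), and that of Mir142 with Ptprc with TPM as deposited (0.674). The male excess of Mir142 passed with TPM as deposited (0.92, limma adjusted p = 0.0189). Signs turned with TPM as deposited for Drosha (-0.226 in ABE against WT, -0.175 in ABE against saline), Dicer1 (-0.433 and -0.169, and -0.205 in ABE against WT with rescaled TPM), Mir22hg (-0.441 and -0.101), Prkca (-0.121 in ABE against saline) and Supt4a (-0.49 in ABE against WT), and the cause was not tested. The median of all genes was then -0.42 in ABE against WT and -0.27 in ABE against saline as deposited, and -0.23 in ABE against WT rescaled. Among named genes over all alternatives, 133 results lost their call and 37 gained one while 1768 stayed on the same side of the threshold. Of these, 52 were lost in females alone, 39 in males alone and 8 without the ABE female library, which also gained 5. The 8 were in ABE against saline for Ptprc (-0.29, limma adjusted p = 0.064), S100a8, Ngp, Ago2, Itgav, Prkca and Mir22hg, and in ABE against WT for Spi1. No paired analysis was possible because the replicate numbers only name the mice.

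Reads on Mir142 limit the comparison of ABE with saline, where single libraries held as few as 4. Counts of called genes moved by over 1.5 times as follows. With TPM as deposited, they were 4580 for saline against WT, 9139 for male against female, and 0 and 6 for the sex differences of saline against WT and of ABE against saline. With TPM rescaled over longer genes the last 3 were 48, 0 and 76. At an unadjusted limma p under 0.05 the zeros stand beside 1473 genes as deposited and 3165 rescaled for saline against WT, and 4282 for ABE against saline without a filter. Without a filter, saline against WT gave 13329, ABE against WT 19349, male against female 229, and the sex differences 3 and 0. Without a minimum of reads and without that library, the sex difference of saline against WT gave 265 and 915 against 401. Females alone gave 3437 for saline against WT and 5149 for ABE against saline, and males alone 3535 for the latter. TPM as deposited shifted the median of all genes to -0.13, -0.42 and -0.27 in the 3 comparisons, and rescaled TPM to -0.17, -0.23 and -0.03, so that the share of calls that were higher fell to 22.1% and 22.4% in saline against WT, 13.5% and 31.5% in ABE against WT, and 7.78% in ABE against saline for the former, from 51.9%, 49.2% and 47.3%. With TPM as deposited, 99.8% of calls between the sexes were higher in males, against 52.2%.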
